A study of Homo sapiens with 6 samples.

Results

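MicroRNA host noncoding genes were followed in RNA sequencing of the human glioblastoma line U87-MG. A host gene here is any entry of the deposited gene table whose symbol has the form MIR, a number or family name, and HG, and 84 of the 61806 genes in the table met this rule. The libraries were 3 of the negative control (NC), labelled as wildtype genotype, and 3 labelled GRIK1 siRNA, labelled as GRIK1 knockdown. The last 3 are called the siRNA-labelled libraries below. The sources describe siRNA in the library names and shRNA in the series text, and the methods list several siRNA sequences, of which the most effective was kept for later experiments. No source used here ties the library numbers to these sequences or to separate cultures, so the p-values measure only the spread between these libraries, which may be technical. Every library came from the same line, so a smaller share of expressing cells and less RNA per cell cannot be told apart.

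MicroRNAs are short RNAs that pair with messenger RNAs through a seed at their 5′ end and lower the output of those messengers. Most are cut from a hairpin inside a longer transcript, first in the nucleus by DROSHA with DGCR8 and then in the cytoplasm by DICER1, and the strand that is kept is loaded into an Argonaute protein such as AGO2. A noncoding host gene is the long transcript itself when the hairpin lies in an exon, and it releases the hairpin from spliced-out sequence when the hairpin lies in an intron. The libraries were made with a general RNA-seq kit and not a small-RNA kit, so the values below are levels of the host transcripts, and mature microRNAs were not measured.

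In the deposited table, 131 rows for microRNA hairpins lay inside 81 of the 84 host genes on the same strand. The 24 host genes with enough reads to be tested held 41 of these hairpins in 23 genes, and MIR30DHG was the gene without one. The mature sequences below are the RefSeq entries (GRCh38.p14) of the microRNAs named most often in the results, written 5′ to 3′ with the seed, bases 2 to 8, in capitals. The first set is shown because 6 mature microRNAs from 5 of the tested hosts, MIRLET7A1HG, MIRLET7BHG, MIRLET7IHG, MIR100HG and MIR4458HG, have one seed in common, GAGGUAG.
hsa-let-7a-5p: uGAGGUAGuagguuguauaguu
hsa-let-7b-5p: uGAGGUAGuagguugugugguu
hsa-let-7d-5p: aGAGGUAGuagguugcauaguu
hsa-let-7f-5p: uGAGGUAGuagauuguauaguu
hsa-let-7i-5p: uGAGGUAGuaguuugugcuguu
hsa-miR-4458: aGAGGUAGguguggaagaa

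The next set is shown because its members come in pairs with a shared seed from one host. MIR222HG holds miR-221 and miR-222, which share the seed GCUACAU, MIR17HG holds miR-17 and miR-20a, which share AAAGUGC, and MIR181A2HG holds miR-181a and miR-181b, which share ACAUUCA.
hsa-miR-221-3p: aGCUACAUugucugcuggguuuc
hsa-miR-222-3p: aGCUACAUcuggcuacugggu
hsa-miR-17-5p: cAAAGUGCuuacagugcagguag
hsa-miR-20a-5p: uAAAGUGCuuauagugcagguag
hsa-miR-181a-5p: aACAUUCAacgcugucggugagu
hsa-miR-181b-5p: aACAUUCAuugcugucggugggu

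The last set gives the leading product of the other hosts described at length. Each of these seeds differs from the others. MIR23AHG carries miR-23a, miR-27a and miR-24 as one cluster, MIR100HG carries miR-100 and miR-125b beside let-7a, and MIR193BHG carries miR-193b and miR-365a.
hsa-miR-22-3p: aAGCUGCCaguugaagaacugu
hsa-miR-210-3p: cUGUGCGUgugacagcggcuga
hsa-miR-34a-5p: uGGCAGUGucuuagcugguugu
hsa-miR-155-5p: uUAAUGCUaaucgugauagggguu
hsa-miR-23a-3p: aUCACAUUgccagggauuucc
hsa-miR-27a-3p: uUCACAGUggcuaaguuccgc
hsa-miR-24-3p: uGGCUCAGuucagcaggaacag
hsa-miR-100-5p: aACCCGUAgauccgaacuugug
hsa-miR-125b-5p: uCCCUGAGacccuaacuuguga
hsa-miR-193b-3p: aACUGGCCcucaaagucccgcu
hsa-miR-365a-3p: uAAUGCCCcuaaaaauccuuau
hsa-miR-146a-5p: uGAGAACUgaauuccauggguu
hsa-miR-4453: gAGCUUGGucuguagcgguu

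Depth and the labels were examined first. Library totals ran from 11099909 to 14006968 counts, and the 84 host genes together took 403 to 658 CPM (counts scaled to the library total). NC library 3 stood apart, with 8.45% of its counts on ribosomal protein genes against 4.35% to 4.99% in the other 5 libraries, and with the lowest total for host genes, 403 CPM against 569 to 658 CPM. GRIK1 itself had 18, 9 and 8 counts in NC, and the counts were 15, 20 and 20 in the siRNA-labelled libraries, a log2 fold change of 0.44 ± 0.43 (SE) with an adjusted p of 0.620 (edgeR, no filter on low values), so a lower level was not seen at these low counts, and the groups are called by their labels below. The knockdown was assayed in this line by RT-qPCR and western blot, which are not analysed here. Among markers of the line, VIM and CD44 were high, at 825 to 1076 and 50.8 to 71.6 FPKM (reads scaled to exon length and to library total), whereas GFAP and SOX2, also known from glioma cells, were at 0.05 to 0.28 and 0 to 0.12 FPKM. The summed level of 3 endothelial markers was 0.02 to 0.08 FPKM, and that of 3 oligodendrocyte markers was 0.02 to 0.12. For 4 neuronal, 3 leukocyte and 4 epithelial markers the sums were 1.91 to 2.81, 2.11 to 4.07 and 4.58 to 6.39 FPKM. CD68 made up nearly all of the leukocyte sum, at 2.11 to 4.06 FPKM, with PTPRC at 0.03 or less and CD3E at 0. SNAP25 at 1.45 to 2.15 FPKM and KRT8 at 2.49 to 3.97 FPKM were the largest parts of the neuronal and epithelial sums.

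The host genes covered a wide range of expression. Of the 84, 24 averaged 0.5 FPKM or more across all libraries and were tested, 14 more had at least 10 counts in a library, and 46 stayed under 10 counts in every library, 25 of them at 0 throughout. The 5 highest by FPKM were MIR22HG, MIR222HG, MIR210HG, MIR34AHG and MIR100HG, with means over all libraries of 15.7, 15.5, 13.6, 7.49 and 4.81 FPKM. These are the hosts of miR-22, of the miR-221 and miR-222 pair, of the hypoxia-induced miR-210, of the p53 target miR-34a and of the miR-100, let-7a and miR-125b cluster. The plot of FPKM by library shows the tested hosts in the order of their level.

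**Figure D1:**
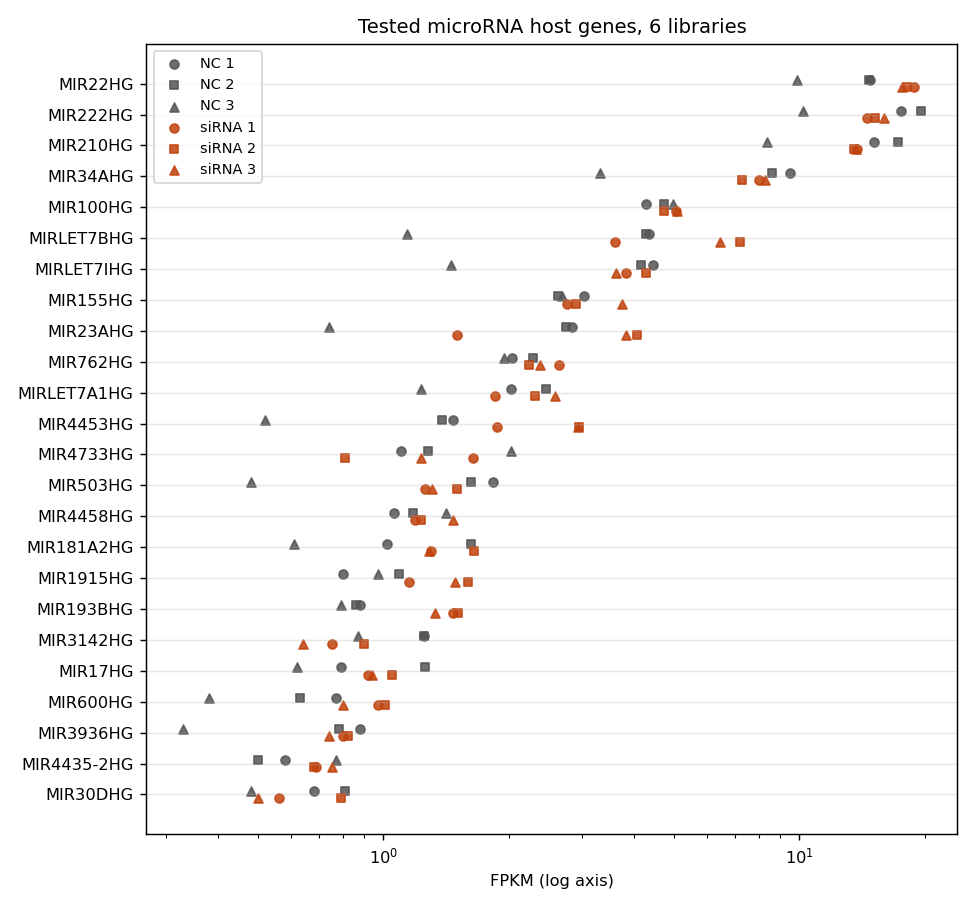
FPKM (log axis) of the 24 tested host genes, with a point for each library, grey for NC and orange for the siRNA-labelled libraries. NC library 3, the grey triangle, lies at the low end for many hosts, such as MIRLET7BHG at 1.14 FPKM and MIR34AHG at 3.31 FPKM, and at the high end for MIR4733HG at 2.03 FPKM.

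None of the 24 tested host genes passed the test between the siRNA-labelled libraries and NC, set at an adjusted p under 0.05 with an absolute log2 fold change over 1 (edgeR, 0 of 24, against 1.41% of all 15870 genes tested). The count was also 0 of 24 without the fold threshold, where 3.09% of all genes passed. At an unadjusted p under 0.05 there were 4 of 24, MIR22HG, MIR193BHG and MIR4453HG higher and MIR3142HG lower in the siRNA-labelled libraries, against 25.1% of all genes. DESeq2 called 1 of 24, MIR4453HG, against 3.09% of all genes. The fitted log2 fold changes ran from -0.63 to 1.15 with a median of 0.11, beside -0.02 for all genes tested, and 17 lay above 0 and 7 below, where 48.6% of all genes lay above. The standard errors were 0.14 to 0.51, with a median of 0.26.

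The adjusted p and several signs changed when NC library 3 was left out. Without it, 7 of 24 hosts had an adjusted p under 0.05, against 35.2% of all genes, and 0 of 24 also passed the fold threshold, against 3.09% of all genes. The 7 were MIR22HG, MIR193BHG, MIR4453HG and MIR4435-2HG (higher in the siRNA-labelled libraries, against 16.9% of all genes) and MIR34AHG, MIR210HG and MIR222HG (lower there, against 18.3%). The sign of the fitted difference turned in 9 of the 24, and 14 of 24 lay above 0, beside 50.7% of all genes. Over the alternatives, the adjusted p of these 7 ranged up to 0.283 (MIR193BHG) and 0.998 (MIR222HG). The median log2 fold change was then 0.09, beside 0.01 for all genes. NC library 3 was singled out because it stood apart in these same data. MIR34AHG, MIR210HG, MIR222HG and MIR4453HG were low in it and MIR4435-2HG was high, so leaving it out itself narrowed their spread. The adjusted p without NC library 3, here and below, therefore describe that choice and are no test.

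**Figure D2:**
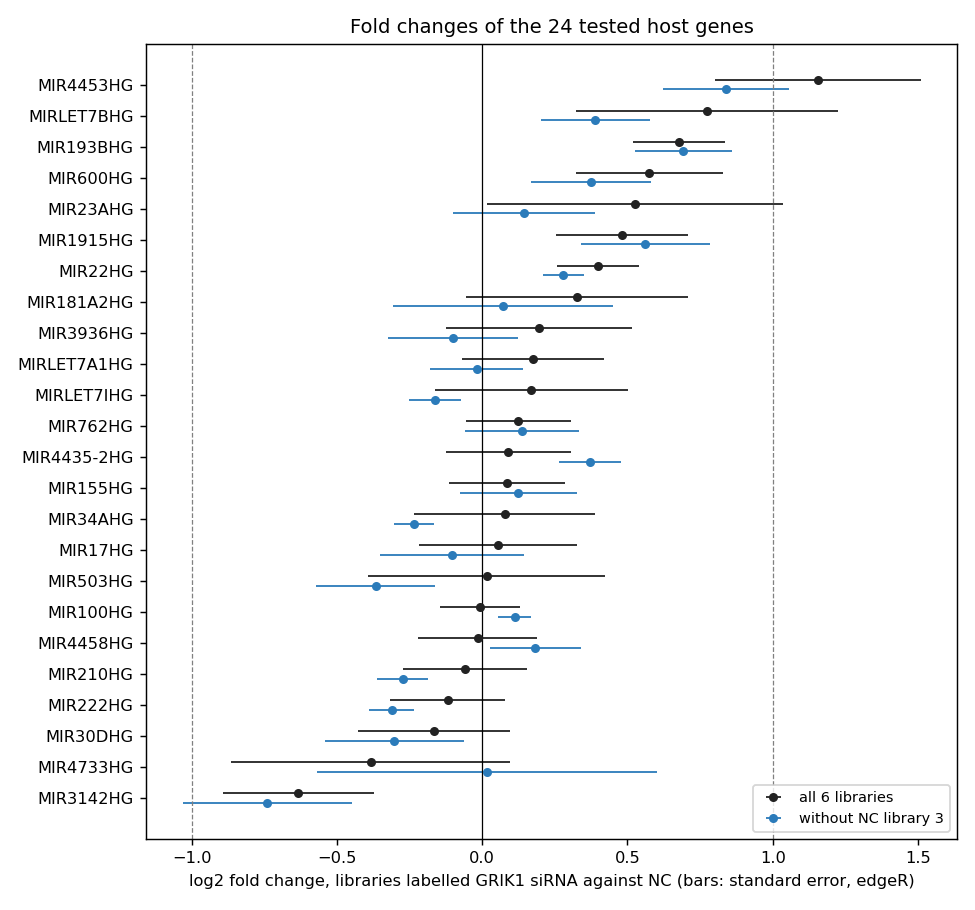
Fitted log2 fold change of each tested host gene, siRNA-labelled libraries against NC, with its standard error as a bar, from all 6 libraries (black) and without NC library 3 (blue). MIR4453HG lies past the dashed line at 1 with all libraries, at 1.15, and inside it without NC library 3, at 0.84, and MIR193BHG hardly moves, from 0.68 to 0.69.

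MIR193BHG (chr16:14301389-14331067, plus strand, GRCh38), host of the intronic hairpins of miR-193b and miR-365a, was the tested host with the smallest adjusted p. It was measured at 0.88, 0.86 and 0.79 FPKM in NC libraries 1 to 3 and at 1.47, 1.51 and 1.33 FPKM in the siRNA-labelled libraries. The groups did not overlap and NC library 3 was close to the other NC libraries. The group means were 0.843 ± 0.0473 and 1.44 ± 0.0945 FPKM (SD, n = 3 each), and the fitted fold was 1.6 with a log2 fold change of 0.68 ± 0.16 (SE) and an adjusted p of 0.0640. Without NC library 3 the adjusted p was 0.00352 at a log2 fold change of 0.69, and over all 16 alternatives it ranged from there to 0.283 without GRIK1 siRNA library 2.

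MIR4453HG (chr4:152536264-152539263, plus strand), a single-exon host with the miR-4453 hairpin inside its exon, showed the largest fitted difference. Its FPKM were 1.47, 1.38 and 0.52 in NC and 1.88, 2.96 and 2.93 in the siRNA-labelled libraries. Each NC value lay below each of the others, and the lowest library within each group, NC 3 and GRIK1 siRNA 1, lay well apart from its own group. Its log2 fold change was 1.15 ± 0.35 with an adjusted p of 0.112, and 0.84 with an adjusted p of 0.00589 without NC library 3. In DESeq2 the adjusted p was 0.0331 at a log2 fold change of 1.16, and with no filter on low values in edgeR it was 0.0271, in a fit that called 1.95% of all genes. Its adjusted p over all 16 alternatives ranged up to 0.343, without GRIK1 siRNA library 3.

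MIR22HG (chr17:1711447-1717174, minus strand), the most abundant host by FPKM, carries miR-22 in an exon. It stood at 14.8, 14.7 and 9.88 FPKM in NC and at 18.9, 18.1 and 17.6 FPKM in the siRNA-labelled libraries. All 3 of the latter were higher than every NC library, and NC library 3 was the lowest of all. The fold was 1.32, with a log2 fold change of 0.40 ± 0.14 and an adjusted p of 0.145, and without NC library 3 it was 1.21 with an adjusted p of 0.00494. WDR81 overlaps 652 of its 5728 bases on the opposite strand, and its counts of 395, 457 and 280 in NC and 420, 436 and 472 in the siRNA-labelled libraries gave a log2 fold change of 0.04. The strand setting of the counting is not given in the sources used here, and 13 of the 24 tested hosts are overlapped by a gene on the opposite strand, so reads of such pairs may not have been separated.

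Non-overlap of the groups was counted for every gene on normalised CPM, which are scaled by the TMM factors of edgeR. For 5 of 24 hosts every library labelled GRIK1 siRNA lay above every NC library, against 19.4% of all genes, namely MIR22HG, MIR193BHG, MIR4453HG, MIR1915HG and MIR600HG. MIR1915HG was at 0.80, 1.09 and 0.97 FPKM in NC and 1.15, 1.6 and 1.49 FPKM in the siRNA-labelled libraries, with a log2 fold change of 0.48 ± 0.23 and an adjusted p of 0.228. MIR600HG was at 0.77, 0.63 and 0.38 against 0.97, 1.01 and 0.80 FPKM, with a log2 fold change of 0.57 ± 0.25 and an adjusted p of 0.206. STRBP lies over 5978 of the 5984 bases of MIR600HG on the same strand, and the exonic size of MIR600HG equals its span. Strand cannot separate their reads, so the values of MIR600HG are uncertain. STRBP had 141, 168 and 225 counts in NC and 110, 123 and 131 in the siRNA-labelled libraries. Its fitted difference was below 0 (log2 fold change -0.72, adjusted p 0.0710, edgeR).

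MIR3142HG (chr5:160438594-160487426, plus strand) was the 1 tested host of 24 with every library labelled GRIK1 siRNA below every NC library on the CPM scale, where 19.0% of all genes were. It holds the exon hairpin of miR-146a, a brake on NF-kB signalling, and the intronic hairpin of miR-3142. Its normalised CPM were 2.94, 2.96 and 2.33 in NC and 1.73, 2.08 and 1.48 in the siRNA-labelled libraries. On the FPKM scale, which has no TMM factor, NC library 3 at 0.87 and GRIK1 siRNA library 2 at 0.90 overlapped. The fitted log2 fold change was -0.63 ± 0.26 with an adjusted p of 0.184, and -0.74 with an adjusted p of 0.0570 without NC library 3.

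The let-7 seed family was spread over 5 tested hosts, and their values differed between libraries more than between groups. let-7 microRNAs are known to repress growth and stem-cell genes such as HMGA2 and LIN28. MIRLET7BHG (chr22:46053869-46113928, plus strand), with let-7a and let-7b hairpins in its exons, had 4.35, 4.29 and 1.14 FPKM in NC and 3.61, 7.19 and 6.45 FPKM in the siRNA-labelled libraries. The groups overlapped, since GRIK1 siRNA library 1 lay below NC libraries 1 and 2. Its log2 fold change was 0.77 ± 0.45 with an adjusted p of 0.316. PRR34-AS1 overlaps it on the same strand, with 24, 19 and 61 counts in NC and 42, 38 and 47 in the siRNA-labelled libraries, so reads over both are uncertain.

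The other let-7 hosts showed smaller fitted differences. MIRLET7IHG (chr12:62602752-62622213, plus strand; let-7i in an intron) had 4.45, 4.16 and 1.45 FPKM in NC and 3.83, 4.27 and 3.63 FPKM in the siRNA-labelled libraries, with a log2 fold change of 0.17 that became -0.16 without NC library 3. MIRLET7A1HG, with let-7a, let-7f and let-7d hairpins in introns, had 2.03, 2.46 and 1.23 against 1.85, 2.31 and 2.59 FPKM, with log2 fold changes of 0.18 and, without NC library 3, -0.02. NC library 3 was the lowest of the 6 libraries in both.

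MIR100HG (chr11:122028325-122556721, minus strand) and MIR4458HG were the let-7 seed hosts in which NC library 3 was not low. MIR100HG is a long host with an exonic size of 30177 bases, and the miR-100, let-7a and miR-125b hairpins lie in its introns. Its FPKM were 4.28, 4.72 and 4.98 in NC and 5.06, 4.72 and 5.07 in the siRNA-labelled libraries, and the groups overlapped. The log2 fold change was -0.01 ± 0.14 with an adjusted p of 0.975, and its sign turned with the scaling. MIR4458HG, host of miR-4458, had 1.06, 1.18 and 1.41 against 1.19, 1.23 and 1.47 FPKM, with a log2 fold change of -0.02 ± 0.20 that also turned with the scaling.

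MIR34AHG and MIR210HG belong to stress responses: miR-34a is a known target of p53, and miR-210 of the hypoxia-inducible factors. MIR34AHG (chr1:9148011-9198906, minus strand; miR-34a in an exon) had 9.52, 8.61 and 3.31 FPKM in NC and 7.98, 7.28 and 8.26 FPKM in the siRNA-labelled libraries. NC library 3 was at 0.414 of the mean of NC libraries 1 and 2 in normalised CPM, and the other 5 libraries lay close together. The log2 fold change was 0.08 ± 0.31 with an adjusted p of 0.893 with all libraries, and -0.23 with an adjusted p of 0.0134 without NC library 3.

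MIR210HG (chr11:565657-568457, minus strand; miR-210 in an intron) had 15.2, 17.3 and 8.36 FPKM in NC and 13.8, 13.5 and 13.7 FPKM in the siRNA-labelled libraries. The latter 3 differed by less than the spread in NC, with SDs of 0.117 and 4.66 FPKM. Its log2 fold change was -0.06 ± 0.22 with an adjusted p of 0.881, and -0.27 with an adjusted p of 0.0217 without NC library 3.

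Hosts of growth-promoting microRNAs did not pass the test with all libraries. MIR222HG (chrX:45745210-45770274, minus strand) carries miR-221 and miR-222, which repress the cell-cycle inhibitor CDKN1B. It had 17.6, 19.6 and 10.2 FPKM in NC and 14.5, 15.2 and 16.0 FPKM in the siRNA-labelled libraries. These 3 lay between NC library 3 and the other NC libraries. The log2 fold change was -0.12 ± 0.20 with an adjusted p of 0.727, and -0.31 with an adjusted p of 0.00491 without NC library 3.

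MIR17HG (chr13:91347820-91354579, plus strand) is the MYC-induced host of the miR-17 to miR-92a cluster, whose 6 hairpins all lie in exons. Its FPKM were 0.79, 1.26 and 0.62 in NC and 0.92, 1.05 and 0.94 in the siRNA-labelled libraries. The NC libraries spread to both sides of the others, and the log2 fold change was 0.05 ± 0.27 with an adjusted p of 0.916. MIR155HG (chr21:25561810-25575168, plus strand), from which miR-155 of activated immune cells is made, had 3.04, 2.63 and 2.69 against 2.77, 2.90 and 3.75 FPKM, with a log2 fold change of 0.08 ± 0.20 and an adjusted p of 0.810.

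MIR23AHG (chr19:13823880-13842928, minus strand), with the miR-23a, miR-27a and miR-24 hairpins in its exon, was the host with the widest standard error. It had 2.84, 2.75 and 0.74 FPKM in NC and 1.5, 4.07 and 3.84 FPKM in the siRNA-labelled libraries. GRIK1 siRNA library 1 lay below NC libraries 1 and 2, so the groups overlapped. The log2 fold change was 0.52 ± 0.51 with an adjusted p of 0.538. ZSWIM4 overlaps 8375 of its 19049 bases on the opposite strand, with 43, 55 and 32 counts in NC and 88, 108 and 109 in the siRNA-labelled libraries, and GRIK1 siRNA library 1 did not stand apart there.

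Within the groups, the same libraries were low for several hosts. NC library 3 was under 0.67 of both other NC libraries for 9 of 24 hosts, against 22.6% of all genes, and over 1.5 times both for MIR4435-2HG and MIR4733HG, 2 of 24, against 15.3%. GRIK1 siRNA library 1 was under 0.67 of both others of its group for MIRLET7BHG, MIR23AHG and MIR4453HG, 3 of 24, against 4.51% of all genes. All 3 were among the 9 that were low in NC library 3, a pattern that 1.90% of all genes had. These counts describe the libraries and were not tested.

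For MIR23AHG the ratio of GRIK1 siRNA library 1 to the mean of libraries 2 and 3 was 0.377, and that of NC library 3 to the mean of NC libraries 1 and 2 was 0.301. For MIRLET7BHG the ratios were 0.528 and 0.299, and for MIR4453HG 0.638 and 0.417. MIR29B2CHG, a host under the filter with the miR-29b and miR-29c hairpins, had ratios of 0.413 and 0.400. The nuclear noncoding RNA NEAT1, which builds paraspeckles, had 0.541 and 0.247, and MIR3619, an intronic hairpin row of MIRLET7BHG, had 8, 7 and 1 counts in NC and 1, 19 and 19 in the siRNA-labelled libraries. What sets these libraries apart was not tested.

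**Figure D3:**
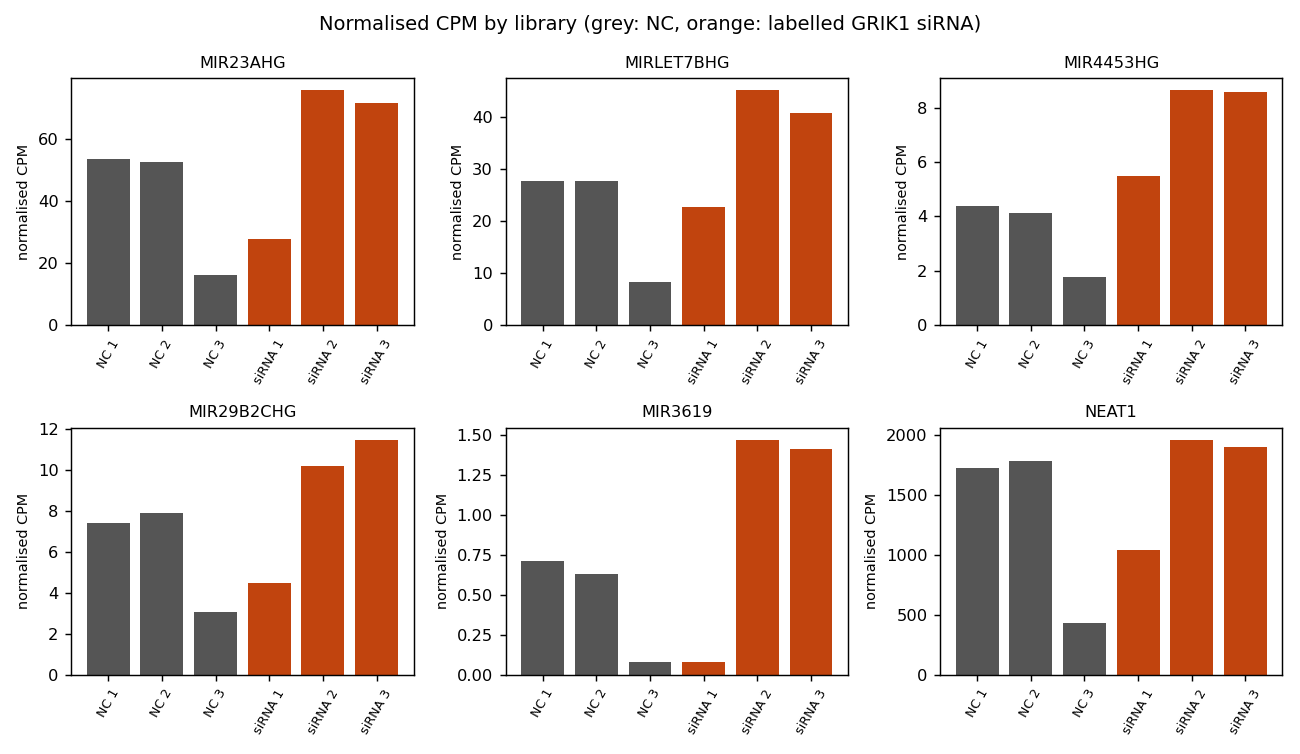
Normalised CPM in each library (bars from 0) of 3 tested hosts, the low host MIR29B2CHG, the intronic hairpin row MIR3619 and the nuclear RNA NEAT1. In all 6 panels NC 3 is the lowest of its group and GRIK1 siRNA 1 the lowest of its group, as for MIR23AHG at 15.9 and 27.7 CPM. The 3 tested hosts are those that met the cutoff in both libraries, so they show the pattern by selection. MIR29B2CHG and MIR3619 were also picked, and MIR3619 lies inside MIRLET7BHG.

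With both of these libraries left out, a choice made after the data were seen, 10 of 24 hosts had an adjusted p under 0.05, against 37.8% of all genes, 7 of 24 higher in the siRNA-labelled libraries, against 17.9%, and 3 of 24 lower, against 19.9%. MIRLET7BHG, at a log2 fold change of 0.63 with an adjusted p of 3e-05, MIR23AHG at 0.48 with 1.77e-05 and MIR1915HG at 0.69 with 0.0184 joined the 7 named above. MIR4453HG, at 1.02 with an adjusted p of 0.000276, was then the 1 host that also passed the fold threshold, where 3.65% of all genes did. Each group has only 2 libraries in that comparison. MIRLET7BHG, MIR23AHG and MIR4453HG were the hosts low in both left-out libraries, so the choice itself narrowed their spread. Their adjusted p in that comparison are therefore no test, and with all libraries they were 0.316, 0.538 and 0.112 (edgeR).

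MIR4435-2HG, a long host with an exonic size of 34231 bases and the miR-4435 hairpin in an intron, behaved in the opposite way in NC library 3. Its FPKM were 0.58, 0.50 and 0.77 in NC and 0.69, 0.68 and 0.75 in the siRNA-labelled libraries, with NC library 3 the highest of all. The log2 fold change was 0.09 ± 0.21 with an adjusted p of 0.812, and 0.37 with an adjusted p of 0.0118 without NC library 3. MIR4733HG, 524 of whose 4664 bases overlap the start of NF1 on the opposite strand, had 1.10, 1.28 and 2.03 against 1.64, 0.81 and 1.23 FPKM, a log2 fold change of -0.38 ± 0.48.

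The remaining tested hosts lay between 0.33 and 2.65 FPKM in every library. MIR503HG had 1.83, 1.62 and 0.48 FPKM in NC and 1.26, 1.5 and 1.31 FPKM in the siRNA-labelled libraries, and MIR181A2HG had 1.02, 1.62 and 0.61 against 1.30, 1.65 and 1.29 FPKM. NC library 3 was the lowest in both. MIR3936HG had 0.88, 0.78 and 0.33 against 0.80, 0.82 and 0.74 FPKM, and here too NC library 3 was lowest. MIR762HG had 2.04, 2.29 and 1.95 against 2.65, 2.24 and 2.38 FPKM, and MIR30DHG had 0.68, 0.81 and 0.48 against 0.56, 0.79 and 0.50 FPKM. The fitted log2 fold changes of these 5 were 0.01, 0.33, 0.19, 0.12 and -0.17 in the order named, with adjusted p from 0.614 to 0.984.

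The hairpins themselves were almost empty in these libraries. By GENCODE 29, 19 of the 41 hairpin rows inside tested hosts lay in exons and 22 in introns. None of the 19 in exons had a count in any library (0 of 19), and 13 of the 22 in introns had at least 1. MIR221 had 32, 52 and 18 counts in NC and 38, 21 and 27 in the siRNA-labelled libraries, and MIR222 had 4, 3 and 8 against 9, 6 and 8. MIR210 had 9, 5 and 6 against 5, 11 and 3. Reads on a hairpin in an exon overlap the host as well, and how the counting treated reads that overlap several genes is not given in the sources used here. These rows are therefore no measure of the microRNAs.

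**Figure D4:**
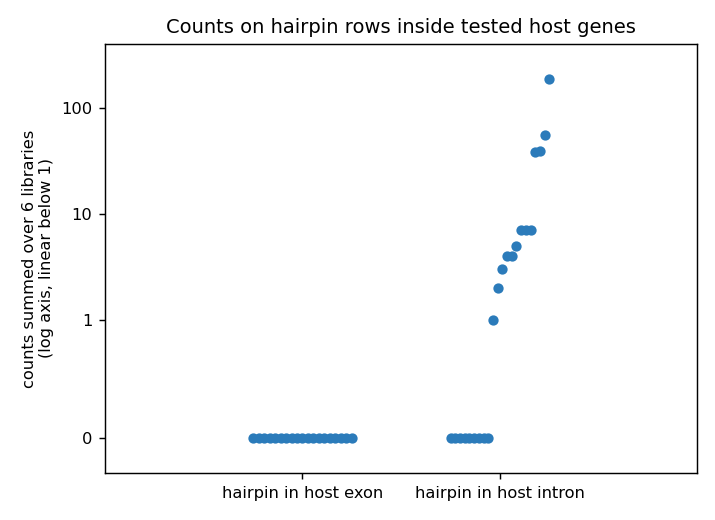
Counts summed over the 6 libraries (log axis, linear below 1) on each of the 41 hairpin rows inside tested hosts, split by position. All 19 exon rows are at 0, and the intron rows reach their highest total at MIR221.

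Below the filter, 14 hosts had at least 10 counts in a library and were fitted without the filter. None had an adjusted p under 0.05 (edgeR, 0 of 14, against 4.12% of the 34080 genes in that fit), and 3 of 14 had an unadjusted p under 0.05, against 17.0% of those genes. MIR924HG (chr18:39206917-39800322) had 8, 14 and 17 counts in NC and 2, 2 and 8 in the siRNA-labelled libraries, a log2 fold change of -1.87 ± 0.60 with an adjusted p of 0.0771. MIR4280HG (chr5:87048858-87138397) had 13, 12 and 7 counts against 25, 34 and 34, a log2 fold change of 1.32 ± 0.39 with an adjusted p of 0.0525. MIR181A1HG (chr1:198777861-198937471), the second host of the miR-181 family, had 7, 9 and 10 counts against 18, 22 and 26, a log2 fold change of 1.13 ± 0.42 with an adjusted p of 0.133.

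Without NC library 3 the adjusted p of these 3 hosts were 0.0457, 0.0290 and 0.0408, in a fit where 17.3% of all genes had an adjusted p under 0.05. With any 1 library left out their adjusted p ranged from 0.0244 (MIR924HG without NC library 1) to 0.49 (MIR181A1HG without GRIK1 siRNA library 3), and MIR4280HG was at 0.0289 without NC library 1. The counts behind them are small. MIR99AHG, the chromosome 21 counterpart of MIR100HG with miR-99a, let-7c and miR-125b, had 227, 187 and 233 counts in NC and 188, 223 and 236 in the siRNA-labelled libraries, with an adjusted p of 0.620. MIR29B2CHG had 83, 88 and 38 counts against 57, 132 and 155, with an adjusted p of 0.459, and the groups overlapped.

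The other 9 hosts of this kind were low in all libraries. MIR3681HG had 45, 31 and 96 counts in NC and 39, 50 and 59 in the siRNA-labelled libraries, with NC library 3 the highest. MIR3945HG had 11, 15 and 26 against 32, 26 and 20 counts, and MIR130AHG had 7, 7 and 10 against 8, 20 and 18. MIR302CHG, whose hairpins belong to pluripotent stem cells, had 5, 8 and 5 against 4, 12 and 13. MIR4500HG, MIR9-1HG, MIR646HG, MIR219A2HG and MIR1302-9HG stayed at 14 counts or fewer in every library, and MIR1302-9HG belongs to a family of near-identical copies, so its reads are uncertain. Of the 14, 9 had a fitted difference above 0 and 5 below, in a fit whose median over all genes was 0.07.

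Several hosts that mark other tissues were at 0 or at few counts. This did not hold for all of them, since MIR155HG, given above, was at 2.63 to 3.75 FPKM. The 25 hosts at 0 counts in all 6 libraries included MIR124-1HG and MIR124-2HG of neurons, MIR1-1HG of muscle, MIR223HG of myeloid cells, MIR217HG of pancreas and MIR200CHG of epithelium, and a count of 0 allows up to 3 counts per library. The other 21 hosts under 10 counts had at least 1 read somewhere and at most 7 in a library. They included further tissue hosts, such as MIR133A1HG with 0, 0 and 0 counts in NC and 0, 4 and 3 in the siRNA-labelled libraries. MIR142HG had 0, 1 and 0 against 3, 0 and 2 counts. MIR205HG had 1, 0 and 0 against 1, 0 and 1, and MIR137HG had 0, 3 and 1 against 0, 1 and 1. MIR31HG (chr9:21380073-21559891), also at 0, lies on the short arm of chromosome 9 near CDKN2A. Neighbours there, chosen after their values were seen, were almost empty too: CDKN2A had 1, 1 and 2 counts in NC and 0, 1 and 1 in the siRNA-labelled libraries, KLHL9 had 1, 0 and 1 against 3, 0 and 1, and MTAP had 1, 0 and 7 against 1, 0 and 1. ELAVL2, farther from MIR31HG on the same arm, had 8, 7 and 18 counts in NC and 4, 5 and 10 in the siRNA-labelled libraries. Copy number of the region was not measured here.

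Genes of the microRNA pathway were set beside the hosts, from a list of 34 biogenesis and effector genes of which 32 were tested. None passed the test (0 of 32, against 1.41% of all genes, and 0 of 32 without the fold threshold, against 3.09%), and 12 of 32 had an unadjusted p under 0.05, against 25.1%. Their median log2 fold change was 0.22 beside -0.02 for all genes. Of the 32, 22 lay above 0 and 10 below, where 48.6% of all genes lay above. In normalised CPM, DROSHA averaged 49.2 ± 10.8 in NC and 59.2 ± 2.81 in the siRNA-labelled libraries (SD, n = 3 each), and its log2 fold change was 0.27. DGCR8, its partner, had the same fitted difference, 0.27, with an adjusted p of 0.504. XPO5, which exports hairpins from the nucleus, had 0.58 with an adjusted p of 0.131, DICER1 0.30 with 0.193 and AGO2 0.36 with 0.212. Their partners RAN, which drives export by XPO5, and TARBP2, which binds DICER1, were on the other side, at -0.69 with an adjusted p of 0.213 and -0.50 with 0.0999. Both were named after their values were seen. RAN had 4146, 4437 and 10501 counts in NC and 4169, 4376 and 4513 in the siRNA-labelled libraries. Its log2 fold change was -0.20 without NC library 3, and that of TARBP2 was -0.51. Without NC library 3 the median of the list was 0.06, with 19 of 32 above 0, beside 50.7% of all genes. In that fit 20 of 32 had an adjusted p under 0.05, against 35.2% of all genes. Of these, 12 were higher (16.9% of all genes) and 8 lower (18.3%).

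Protein-coding genes with an intronic or overlapping microRNA, with DLEU2, formed a second list of 46 genes, 33 of them tested. Of these, 2 of 33 passed, against 1.41% of all genes, both higher, MEST and PDE2A. The list was made with earlier results of these data known, so the shares that passed are no test of coding hosts against noncoding hosts. The median log2 fold change of the list was 0.08, beside -0.02 for all genes. MEST, an imprinted gene and host of miR-335, had 4.37, 4.40 and 4.75 normalised CPM in NC and 13.6, 11.6 and 11.1 in the siRNA-labelled libraries, a log2 fold change of 1.42 ± 0.17 with an adjusted p of 0.0205. PDE2A, a cyclic nucleotide phosphodiesterase and host of miR-139, had 5.97, 7.09 and 4.42 against 15.9, 15.7 and 15.2, a log2 fold change of 1.42 with an adjusted p of 0.0268. In neither did the groups overlap. Both calls were lost when any 1 library other than NC library 3 was left out (0 of 33), as were the calls among all genes.

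Without the fold threshold, 5 of 33 coding hosts passed, where 3.09% of all genes did. PTK2, which encodes focal adhesion kinase, was higher at a log2 fold change of 0.55, and ATAD2 and DALRD3 were lower at -0.85 and -0.77. MCM7, a replication helicase subunit and host of the miR-106b to miR-25 cluster, had -0.18 with an adjusted p of 0.512. SMC4, host of miR-15b and miR-16, had -0.03, and VMP1, host of miR-21, had -0.27 with an adjusted p of 0.196. DLEU2, the noncoding host of miR-15a and miR-16, had 0.78 with an adjusted p of 0.0961. Its normalised CPM were 13.4, 13.7 and 7.96 in NC and 18.1, 21.1 and 21.0 in the siRNA-labelled libraries.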

How the data were processed

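RNA-seq libraries of U87-MG cells were grouped by their labels, as 3 NC and 3 siRNA-labelled libraries. The authors deposited whole-number counts per gene, without normalization, and the FPKM which the authors derived from these counts by dividing by library total and exonic size. The formula gave 100% of the deposited FPKM values within 0.005. The submitters' notes name cutadapt 1.9.1, HISAT2, HTSeq and GRCh38. The strand setting and counting mode are not given in the sources used here.

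Counts of all genes with a mean FPKM of at least 0.5 (15870 genes) were fitted in edgeR 4.0.16 (R 4.3.3, quasi-likelihood test, TMM scaling, Benjamini-Hochberg adjustment over all genes tested). Calls needed an adjusted p under 0.05 together with a log2 fold change above 1 in absolute value. GRIK1 and hosts under the filter were read from the fit without it. DESeq2 1.42.0 and limma 3.58.1 (on log2(FPKM + 1) and log2(FPKM + 0.1)) were alternatives, beside other filters and scalings, a block and leaving out each library. On simulated counts with 200 genes changed 4-fold among 15870, edgeR recovered 159 with 9 false calls. No column was left unassigned.

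Named genes were GRIK1, every tested host, every other host with at least 10 counts in a library, called genes and preset members of the biogenesis and coding host lists, overlapping genes, hairpin rows inside named hosts, and MALAT1, NEAT1 and KCNQ1OT1. Members and lists were chosen with earlier results of these data known. Hairpins were placed by GENCODE 29, in which 83 of the 84 hosts were found, 36 with the same start and end. Mature sequences come from RefSeq. Counting intervals and the limit of 3 counts cover counting error only. With 3 libraries a group, an exact permutation test cannot go below p = 0.1, so none was run.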

Additional observations from a re-analysis of the deposited data

How the results depend on the processing

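The number of hosts called, 0, became 1 (MIR4453HG) with no filter on low values, in DESeq2, and without both NC 3 and GRIK1_siRNA 1, the last chosen after seeing the data. It stayed 0 under the other settings. Of the coding hosts, 2 were called, 0 in limma on log2(FPKM + 1), 0 with the replicate block, 5 with no fold threshold, 4 at a 1.5-fold threshold, and 0 to 2 with 1 library left out. The same numbers did not pair the libraries (correlations of deviations -0.0703, 0.0441 and -0.0425 for numbers 1 to 3), and the replicate block left 0 hosts and 0 genes called in all. Among all genes, 224 were called, 491 without NC library 3, 490 in DESeq2 and 0 without any 1 of the other libraries. Biogenesis genes stayed at 0 called in every setting.

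Fitted differences near 0 turned sign. Without both libraries, MIR17HG was at -0.067, MIR503HG at -0.32, MIR34AHG at -0.25, MIR3936HG at -0.11, MIRLET7IHG at -0.15, MIR4458HG at 0.24 and MIR100HG at 0.0978. MIR503HG was at -0.003 without the filter. MIR210HG was at 0.0622 and 0.0712, MIR4458HG at 0.0522 and 0.0882 and MIR100HG at 0.0734 and 0.0873 in limma with a pseudocount of 1 and 0.1, and MIR222HG at 0.0018 with 0.1. With a mean FPKM of at least 1, MIR4458HG was at 0.0122 and MIR100HG at 0.0183, with upper-quartile scaling at 0.0048 and 0.0102, and with the replicate block MIR100HG was at 0.001.

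With 1 library left out, log2 fold changes ranged from -0.0679 to 0.37 for MIR4435-2HG, -0.10 to 0.35 for MIR17HG, -0.37 to 0.32 for MIR503HG, -0.23 to 0.31 for MIR34AHG, -0.10 to 0.42 for MIR3936HG, -0.0654 to 0.17 for MIR155HG, -0.27 to 0.13 for MIR210HG, -0.13 to 0.18 for MIR4458HG, -0.0947 to 0.11 for MIR100HG, -0.16 to 0.40 for MIRLET7IHG, -0.64 to 0.0159 for MIR4733HG, -0.0188 to 0.38 for MIRLET7A1HG and -0.31 to 0.0423 for MIR222HG. Apart from the left-out libraries, the cause was not tested. Standard errors of 0.14 to 0.51 limit what 3 libraries a group can resolve.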

Other observations

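Several genes that overlap a tested host had larger fitted differences than the host. NF1, the RAS regulator whose start overlaps MIR4733HG on the opposite strand, had 1105, 1127 and 882 counts in NC and 1770, 1767 and 1859 in the siRNA-labelled libraries, a log2 fold change of 0.61 with an adjusted p of 0.0767 (edgeR). SLC22A5, a carnitine transporter that overlaps 461 bases of MIR3936HG on the opposite strand, had 170, 193 and 112 against 310, 291 and 320 counts, with 0.77 and an adjusted p of 0.109. ZSWIM4, beside MIR23AHG, had 1.04 with an adjusted p of 0.0715. None of the 3 passed with all libraries, and without NC library 3 their adjusted p were 2.22e-06, 0.00087 and 0.00225. In that fit 35.2% of all genes had an adjusted p under 0.05. The 3 were picked for their size among the overlapping genes. WDR81, SLC22A4, NR6A1, BCL2L11 and PRR34-AS1 had log2 fold changes of 0.04, 0.22, 0.34, 0.21 and 0.14 with all libraries. BCL7C and LNCTAM34A had -0.34 and -0.28, and the adjusted p of these genes ranged from 0.38 to 0.91 (edgeR). STRBP, given above, was at -0.72. Without NC library 3, PRR34-AS1 was at 0.75 with an adjusted p of 0.0432, and STRBP at -0.57 with 0.00299 (edgeR). For WDR81, SLC22A4, NR6A1, BCL2L11, BCL7C and LNCTAM34A the adjusted p in that fit was 0.126 or more.

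Nuclear noncoding RNAs differed from one another. KCNQ1OT1, the imprinted antisense RNA of the KCNQ1 locus, had 86, 102 and 49 counts in NC and 332, 741 and 764 in the siRNA-labelled libraries, and rose, in the fit without a filter, with a log2 fold change of 2.74 ± 0.28 and an adjusted p of 4.19e-06 (edgeR). MALAT1 had 343, 392 and 239 against 544, 885 and 889 counts, with 1.06 and an adjusted p of 0.0747. NEAT1 had 19414, 19885 and 5406 against 13305, 25412 and 25725 counts, with 0.31 and an adjusted p of 0.717. In all 3, NC 3 and GRIK1 siRNA 1 were the lowest libraries of their groups.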
